A study of Mus musculus with 2 samples.

Results

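The cell cycle genes described here were 40 members of the 32285 genes measured: 16 genes of S phase, 23 genes of G2 and mitosis (G2/M), and Stmn1, which was put in neither list. They were chosen by name, and each of the 40 had unique molecular identifiers (UMIs, 1 per captured transcript) in both libraries. Single-cell 3' RNA sequencing had been run on a normal duodenum library (labelled WT), pooled from 3 Lkb1+/+;Myh11-Cre/ERT2 mice, and on a polyp library (labelled Lkb1_Het), pooled from 3 Lkb1flox/+;Myh11-Cre/ERT2 mice. Both genotypes carried the Cre, whose Myh11 promoter is that of smooth muscle, so the controls share the transgene and differ in the Lkb1 allele. The labels used here give neither the age of the mice nor the Cre induction, and the source label of both libraries reads duodenum although the design speaks of polyps.

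Cells copy their genome in S phase and divide in mitosis, and the genes of each step are transcribed just before they are needed. The minichromosome maintenance (MCM) helicase is loaded at origins before S phase, and enzymes of nucleotide synthesis feed replication. Cyclin-dependent kinase 1 with its B-type cyclins then drives entry into mitosis, and the anaphase-promoting complex ends it by marking cyclins for destruction. In the intestine and the stomach, division is known to be concentrated in progenitors near the base or neck of the epithelial units, while differentiated cells leave the cycle.

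After filtering, 3167 normal and 7887 polyp cells were kept, with medians of 2421 and 2318 UMIs, and 9 of their barcodes occurred in both libraries. Each group was 1 library, so no difference between them could be tested. All intervals are 95% and cover counting error only, and neither differences between mice nor tissue handling can be told apart from genotype. In all, 64.9% of normal and 39.1% of polyp barcodes had been above the limit of 25% mitochondrial UMIs. The labelled tissue was visible in the normal epithelium, where the enterocyte gene Fabp1 stood at 9441 CPM (counts scaled to a class total of 1000000 UMIs), whereas the polyp epithelium had 3.87 CPM of Fabp1 and 15719 CPM of the gastric gene Gkn2 against 1591 in normal epithelium. Stk11, the gene also called Lkb1, was at 28.2 CPM in normal against 38.6 CPM in polyp cells, and smooth muscle and pericytes held only 2 and 1 of its UMIs, so the heterozygous allele could not be checked.

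Promoter sequences of 32 of the 40 members were in the RefSeq table (GRCm38.p6), each from 250 bases before to 50 bases after the start of the gene. Several members have known control elements, so 3 kinds of motif were searched on both strands: CCAAT, the cell cycle genes homology region (CHR, TTTGAA or TTCGAA), and an E2F site (TTTCCCGC, TTTCGCGC, TTTGCCGC or TTTGGCGC). CCAAT was in 17 of 19 G2/M promoters (89.5%) and in 9 of 13 S phase promoters (69.2%), against 37.9% of all 27025 promoters. A CHR was in 15 of 19 G2/M promoters (78.9%) and 2 of 13 S phase promoters (15.4%), against 19.4% of all promoters. An E2F site was in 1 of 19 G2/M promoters (5.26%) and 5 of 13 S phase promoters (38.5%), against 2.32% of all promoters. The 15 G2/M promoters with a CHR also held CCAAT, a pair found in 7.70% of all promoters. A match describes letters in this window only and does not show that a factor binds there.

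The 250 bases before the start are shown for 4 members on which the results below turn, 5' to 3' on the strand of the gene, with the motifs in capitals. Mcm5 (chr8:75109259-75109508, plus strand) and Mcm6 (chr1:128359706-128359955, minus strand) are S phase helicase genes that were lower in polyp epithelium. Cdk1 (chr10:69352913-69353162, minus strand) was higher there, and Top2a (chr11:99024190-99024439, minus strand) helped to define cycling cells. No base belonged to 2 kinds of motif in these windows, but the capitals TTTCGCGCCAAA in Mcm5 join 2 E2F sites on opposite strands, as does a run in Mcm6.
Mcm5: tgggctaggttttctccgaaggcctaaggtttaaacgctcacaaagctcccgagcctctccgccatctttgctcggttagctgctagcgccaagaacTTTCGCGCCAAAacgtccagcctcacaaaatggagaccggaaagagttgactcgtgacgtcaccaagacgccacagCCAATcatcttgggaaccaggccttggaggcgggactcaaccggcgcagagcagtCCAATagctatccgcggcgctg
Mcm6: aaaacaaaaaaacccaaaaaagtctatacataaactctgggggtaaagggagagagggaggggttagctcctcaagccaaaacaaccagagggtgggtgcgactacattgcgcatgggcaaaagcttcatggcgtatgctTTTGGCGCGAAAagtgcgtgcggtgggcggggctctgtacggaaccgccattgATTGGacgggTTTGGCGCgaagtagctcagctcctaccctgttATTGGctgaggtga
Cdk1: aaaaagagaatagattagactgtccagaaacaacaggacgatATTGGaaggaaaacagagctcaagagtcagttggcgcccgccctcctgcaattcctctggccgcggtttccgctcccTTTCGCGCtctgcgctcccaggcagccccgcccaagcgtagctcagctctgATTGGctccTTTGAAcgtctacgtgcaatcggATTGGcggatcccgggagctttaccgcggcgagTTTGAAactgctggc
Top2a: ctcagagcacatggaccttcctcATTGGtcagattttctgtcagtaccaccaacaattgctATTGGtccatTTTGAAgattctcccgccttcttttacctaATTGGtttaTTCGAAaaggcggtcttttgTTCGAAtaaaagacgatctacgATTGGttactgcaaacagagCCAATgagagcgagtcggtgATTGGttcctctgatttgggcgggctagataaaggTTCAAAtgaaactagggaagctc

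Cycling cells were defined as cells with 2 or more UMIs of Mki67 and Top2a together. Mki67 (chr7:135689784-135716361) encodes a protein that coats mitotic chromosomes, and Top2a (chr11:98992943-99024189) encodes the topoisomerase that untangles sister chromatids. The rule marked 116 of 3167 normal cells (3.66%, interval 3.04 to 4.38) and 332 of 7887 polyp cells (4.21%, 3.78 to 4.68). The ratio of the shares, polyp over normal, was 1.15 (0.928 to 1.43), so the shares did not differ beyond counting error. Deeper cells pass such a rule more easily, so shares were also computed as the share expected after drawing 1000 UMIs from each cell. This left 2022 normal and 5954 polyp cells, of which 0.575% and 0.506% were cycling, a ratio of 0.881 (0.435 to 1.91). Raising the mitochondrial limit to 50% moved that ratio to 0.369 (0.243 to 0.557). Among the barcodes above the 25% limit, 309 of 6453 normal ones (4.79%) and 61 of 5606 polyp ones (1.09%) met the cycling rule.

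Each cell took the class with the most marker genes above background, at least 3 of them, which left 272 normal and 3072 polyp cells, mostly shallow, without a class. Just 3 markers were found in 67 of 723 normal and 420 of 2767 polyp epithelial cells, so these lay at the edge of the class. Epithelial cells had medians of 232 and 80 UMIs of their own markers, 0 of T cell markers, and 16 and 10 of plasma cell markers.

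Counted without thinning, epithelial cells supplied most cycling cells in both tissues. They were 83 of the 116 cycling cells in normal duodenum (71.6%) and 262 of the 332 in polyps (78.9%), although epithelium made up 22.8% and 35.1% of the kept cells. Drawn to 1000 UMIs, epithelium held 37.6% of the expected cycling cells in normal and 61.2% in polyp tissue. It made up 33.5% and 45.7% of the cells left. In normal tissue, epithelium held 54.6% of the expected cycling cells at 2000 UMIs and 68.9% at 5000 UMIs. There it made up 34.5% and 61.7% of the cells left. Of these draws, only that to 1000 UMIs, with 11.6 expected cycling cells, lacked an epithelial majority in normal tissue. Within epithelium, 83 of 723 normal cells were cycling (11.5%, 9.25 to 14.0) and 262 of 2767 polyp cells (9.47%, 8.40 to 10.6), a ratio of 0.825 (0.642 to 1.07). Drawn to 1000 UMIs, which left out 46 cells of each library, the expected shares were 0.645% of 677 and 0.677% of 2721 cells, with a ratio of 1.05 (0.359 to 3.98). Drawn to 5000 UMIs, they were 5.05% of 510 and 4.87% of 2146 cells, with a ratio of 0.965 (0.622 to 1.55). With a mitochondrial limit of 50%, the ratio at 1000 UMIs was 0.412 (0.232 to 0.720), below 1 beyond counting error. Cycling epithelial cells were deeper than the others, with medians of 30320 against 17140 UMIs in normal and 21503 against 11473 UMIs in polyp tissue.

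Other classes were shallower, so their order against epithelium depended on depth. Without thinning, among T and innate lymphoid cells, 17 of 801 normal (2.12%, 1.24 to 3.38) and 18 of 738 polyp cells (2.44%, 1.45 to 3.83) were cycling. The ratio was 1.15 (0.559 to 2.37), and 1.25 (0.248 to 6.63) after drawing to 1000 UMIs, where 0.496% and 0.619% of the remaining 785 and 720 cells were expected to cycle. Drawn to 2000 UMIs, the T cell shares were 0.958% and 2.39%, against 2.07% and 1.77% in epithelium. Of the plasma cells, 3 of 149 normal and 7 of 296 polyp cells were cycling (2.01% and 2.36%). Among macrophages, 1 of 21 normal and 4 of 255 polyp cells met the rule, and in polyps so did 3 of 70 mast cells (4.29%, 0.893 to 12.02). Fibroblasts gave 0 of 29 and 0 of 199 cells, which allows shares of up to 10.3% and 1.51% of cells meeting the rule, where a count of 0 is taken to allow 3 cells. Acinar cells, which should seldom divide, gave 1 of 877 (0.114%) and 0 of 71 cells at medians of 655 and 991 UMIs. Cells this shallow can rarely reach 2 UMIs of the 2 genes, so these counts do not measure free RNA. Mki67 and Top2a summed to 15.9 CPM in normal acinar cells, against 59.0 CPM in normal epithelium. In a shallow normal cluster of 1314 cells, mostly acinar among those with a class, they summed to 71.0 CPM. The part of free RNA was not tested. Erythroid cells gave 0 of 10 and 0 of 93 cells, at medians of 7341 and 2666 UMIs, and the polyp share allowed is up to 3.23%.

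**Figure D1:**
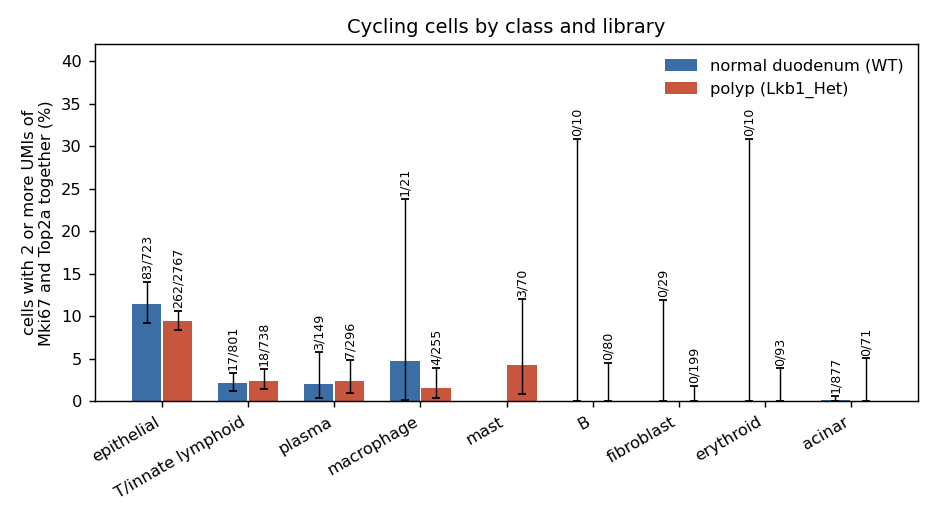
Share of cells with 2 or more UMIs of Mki67 and Top2a together (per cent, not thinned) in classes set by marker UMIs, for normal duodenum (blue) and polyp (red); bars are shares, lines 95% binomial intervals, and the numbers are cycling cells over all cells of the class, for groups of 10 or more cells. Epithelium stands highest at 11.5% and 9.47%, and the intervals of the 2 libraries overlap in every class drawn with both.

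The S phase members were lower in polyp epithelium, whereas the direction of the summed G2/M members depended on Hmgb2. Summed over the 16 S phase members, the level was 387 CPM in normal (377 to 398) and 268 CPM in polyp epithelium (263 to 274), a ratio of 0.693 (0.669 to 0.717). The 23 G2/M members summed to 701 and 640 CPM, a ratio of 0.913 (0.891 to 0.935). More than any other member, Hmgb2 weighed on that sum, with 379 CPM in normal against 260 CPM in polyp epithelium. Hmgb2 (chr8:57511907-57515999) encodes a chromatin protein that non-dividing cells also make. Without it, a choice made after seeing the data, the G2/M members summed to 322 and 380 CPM. The ratio then turned to 1.18 (1.14 to 1.22). The median gene of the 13569 tested in epithelium shifted by 0.04 on the log2 scale between the libraries.

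A member was counted as higher or lower in polyps where its CPM ratio passed 1.5-fold and the interval stayed clear of 1. By this rule 0 of the 16 S phase members were higher and 9 were lower, while of the 23 G2/M members 4 were higher and 1 was lower. Of all genes tested in epithelium, 25% were higher and 20.5% lower by the same rule. The median log2 ratio was -0.70 for the S phase members and 0.23 for the G2/M members. Ratios below 1 were found for 14 of 16 S phase members, and ratios above 1 for 13 of 23 G2/M members.

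Among the S phase members, the helicase genes were lower together. Mcm7 (chr5:138164583-138172422), a subunit of the MCM helicase, stood at 30.03 CPM in normal against 14.98 CPM in polyp epithelium, 2.004-fold lower (1.76 to 2.28). Mcm5, another subunit, was at 18.1 and 9.61 CPM, 1.88-fold lower (1.59 to 2.22). Mcm6 was at 37.7 and 21.9 CPM, Mcm3 at 20.8 and 12.3 CPM, and Mcm4 at 20.1 and 12.6 CPM. These 5 subunits met the rule, whereas Mcm2 at 13.3 and 9.29 CPM did not, with a 1.43-fold lower level (1.18 to 1.72).

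Pcna (chr2:132249162-132253314), the sliding clamp that holds DNA polymerase on its template, was at 121 CPM in normal against 72.8 CPM in polyp epithelium, 1.66-fold lower (1.56 to 1.77). Uhrf1 (chr17:56303321-56323486), which carries DNA methylation through replication, was at 18.6 and 9.14 CPM, 2.03-fold lower (1.71 to 2.40). Ccne1 and Ccne2, the E-type cyclins that start S phase, were at 5.66 and 3.27 CPM and at 4.72 and 2.49 CPM.

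The enzymes of nucleotide synthesis were not lower with them. Tyms, the thymidylate synthase, was at 37.97 CPM in normal against 43.0 CPM in polyp epithelium, a ratio of 1.13 (1.02 to 1.26). Tk1, the thymidine kinase, had a ratio of 1.21 (0.995 to 1.48). The ribonucleotide reductase subunits Rrm1, at 21.3 and 20.6 CPM, and Rrm2, at 11.9 and 10.7 CPM, had intervals that held 1. Of the origin factors, Cdc6 had a ratio of 0.874 (0.653 to 1.18) and Gins2 a ratio of 0.779 (0.638 to 0.955).

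Cenpf, Cdk1, Cenpa and Kif20a were the 4 of 23 G2/M members called higher in polyps, a smaller share than among all genes tested. Cenpf (chr1:189640606-189688086), a kinetochore protein, was at 9.20 CPM in normal against 18.6 CPM in polyp epithelium, a ratio of 2.02 (1.66 to 2.48). Cdk1 was at 13.3 and 21.5 CPM, a ratio of 1.62 (1.37 to 1.92). Cenpa, the histone variant of centromeres, was at 19.7 and 31.5 CPM, a ratio of 1.61 (1.40 to 1.85). Kif20a, a kinesin of cytokinesis, was at 2.52 and 3.87 CPM, a ratio of 1.54 (1.04 to 2.33). Bub1b, a spindle checkpoint kinase, was the 1 lower member, at 5.90 and 3.82 CPM, 1.54-fold lower (1.15 to 2.05).

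Smaller differences had intervals above 1 without passing 1.5-fold. Ube2c, the ubiquitin-conjugating enzyme of the anaphase-promoting complex, was at 59.7 CPM in normal against 71.2 CPM in polyp epithelium, a ratio of 1.19 (1.10 to 1.29). Birc5, also called survivin and part of the chromosomal passenger complex, was at 39.7 and 51.1 CPM, a ratio of 1.29 (1.17 to 1.42). Ccnb2, a B-type cyclin, had a ratio of 1.32 (1.11 to 1.56), whereas Ccnb1 had 0.867 (0.715 to 1.06). Mki67 was at 34.6 and 32.8 CPM and Top2a at 24.4 and 23.2 CPM, and neither differed beyond counting error. Stmn1, which destabilises microtubules, was at 162 and 115 CPM, 1.41-fold lower (1.34 to 1.49).

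**Figure D2:**
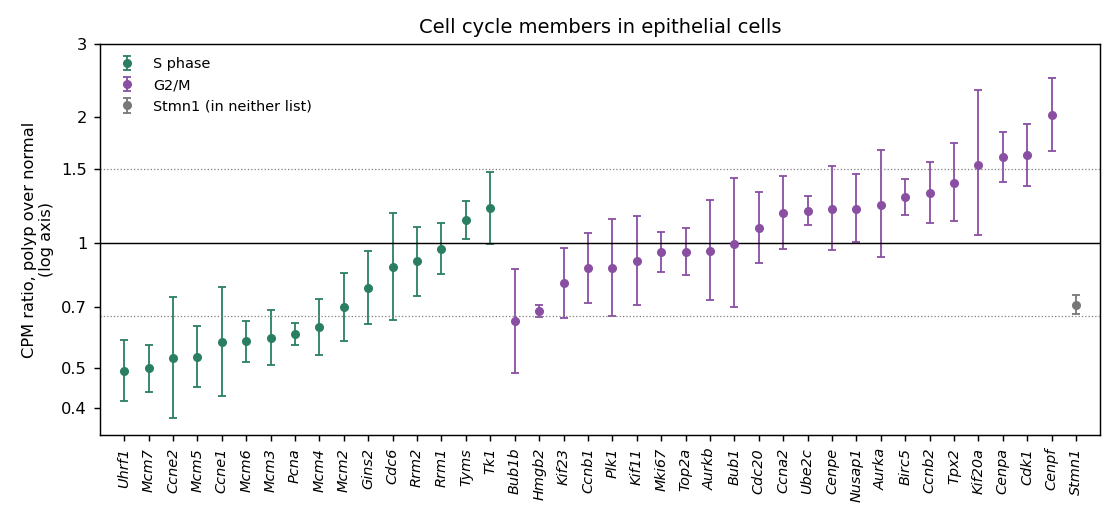
Ratio of CPM in polyp over normal epithelium (log axis) for the 40 members, with points for ratios and lines for 95% intervals; green marks S phase, purple G2/M and grey Stmn1, and dotted lines mark 1.5-fold either way. The S phase points run from Uhrf1, 2.03-fold lower, to Tk1 at 1.21, and the G2/M points from Bub1b at 0.647 to Cenpf at 2.02.

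Other cell cycle genes outside the members were grouped in 4 lists. Of all genes tested in epithelium, 25% were higher and 20.5% lower, and each count below is set against these shares. The list of 18 further licensing and replication genes had 0 higher and 13 lower in polyp epithelium, with a median log2 ratio of -1.08. Gmnn, the inhibitor of relicensing, was at 70.8 CPM in normal against 28.6 CPM in polyp epithelium, Rpa2, a single-strand binding subunit, at 16.7 and 6.21 CPM, and the chromatin remodeller Hells at 38.6 and 15.5 CPM. The 28 further mitosis genes had 6 higher and 3 lower, with a median of 0.00. Among them Cdc25b, a phosphatase that activates Cdk1, was at 2.20 and 6.80 CPM and Hmmr, a spindle protein, at 6.29 and 12.4 CPM, whereas Hjurp, the loader of Cenpa, was at 30.4 and 14.2 CPM.

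Of the 15 entry regulators, 1 was higher and 5 were lower, against 25% of all genes higher and 20.5% lower. E2f2, a transcription factor of S phase genes, was at 8.73 CPM in normal against 2.15 CPM in polyp epithelium, 4.05-fold lower, and E2f8, a repressor of the family, at 8.41 and 4.13 CPM. Ccnd1, the cyclin D1 gene, was at 65.6 and 108 CPM, a ratio of 1.64 (1.53 to 1.77). Among 12 inhibitors with enough UMIs, 2 were higher and 4 lower. Cdkn2b, which blocks Cdk4 and Cdk6, was at 83.6 CPM in normal against 6.26 CPM in polyp epithelium, 13.4-fold lower, and Cdkn1a, the p21 gene, at 130 and 53.0 CPM. Cdkn2c, another inhibitor of Cdk4 and Cdk6, was at 4.01 and 12.6 CPM, a ratio of 3.14 (2.35 to 4.28).

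The S phase ratio was below 1 both in cycling and in other epithelial cells. In cycling epithelial cells, the S phase members summed to 1017 CPM in 83 normal and 740 CPM in 262 polyp cells, a ratio of 0.727 (0.692 to 0.765). In the remaining cells they summed to 243 and 178 CPM, a ratio of 0.733 (0.699 to 0.768). The 20 G2/M members other than Mki67, Top2a and Hmgb2 summed to 1175 and 1706 CPM in cycling cells, a ratio of 1.45 (1.39 to 1.51). Outside the cycling cells they summed to 53.5 and 59.2 CPM, a ratio of 1.11 (1.01 to 1.22).

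Counted per cell, this showed as fewer polyp cells with S phase UMIs alone. Cells were called S phase at 3 or more UMIs of the S phase members and G2/M at 3 or more UMIs of those 20 members, after 1 random draw of 5000 UMIs per cell. Of 510 normal epithelial cells 18.04% (14.8 to 21.7) had S phase UMIs only, against 6.48% (5.47 to 7.60) of 2146 polyp cells. Both kinds were found in 4.71% and 5.31% of cells, and G2/M UMIs only in 3.92% and 5.50%. Without the draw, S phase only was found in 29.5% of 723 normal and 21.8% of 2767 polyp cells. Free RNA in the droplets can add to such calls, and its part was not tested. Pcna held 1536 of the 4929 S phase UMIs of normal and 2804 of the 10335 of polyp epithelium. In normal epithelium it had the lowest fold of cycling over other cells among the S phase members, 2.41. No call was made without Pcna, so its part in the S phase only shares was not tested.

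**Figure D3:**
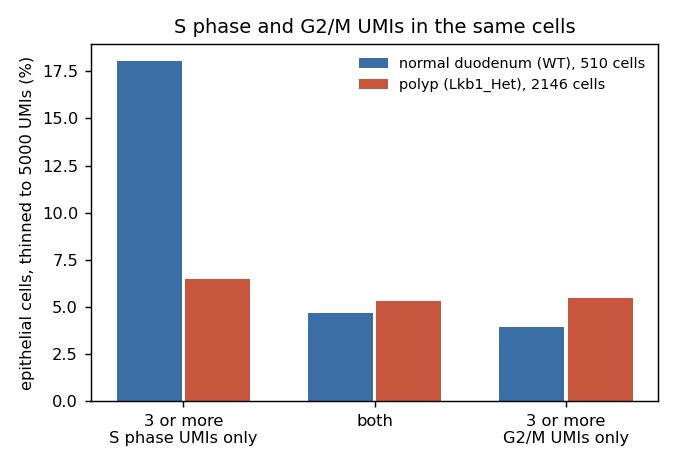
Share of epithelial cells (per cent, thinned to 5000 UMIs) with 3 or more UMIs of the S phase members only, of both lists, or of the G2/M list only, in normal duodenum (blue) and polyp (red); the G2/M list here leaves out Mki67, Top2a and Hmgb2. The S phase only share is 18.04% in normal and 6.48% in polyp epithelium, while the other shares lie between 3.92% and 5.50%.

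The members also differed in how far they set cycling cells apart. In normal epithelium, the CPM of the S phase members in cycling over other cells had a median fold of 6.19, from Pcna at 2.41 to Rrm2 at 10.6. The 21 G2/M members that the cycling rule did not use had a median fold of 25.3, from Hmgb2 at 5.33 to Aurkb, the kinase of the chromosomal passenger complex, at 100.1. In polyps the medians were 4.79 and 30.6, with Cdc6 lowest among the S phase members at 2.32 and Nusap1, a spindle microtubule protein, highest among the G2/M members at 59.0. Ccnb1 had folds of 8.98 in normal and 26.2 in polyp epithelium. Across the 38 members outside the rule, the folds of the 2 libraries had a Spearman rho of 0.874, given as a description because members share cells. All 16 S phase and all 21 G2/M members had folds above 1 in both libraries. Cycling cells were picked by UMIs of Mki67 and Top2a, themselves G2/M members, and were deeper than the others. Folds above 1 and larger G2/M folds are thus partly built in by the rule, and its part was not tested.

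**Figure D4:**
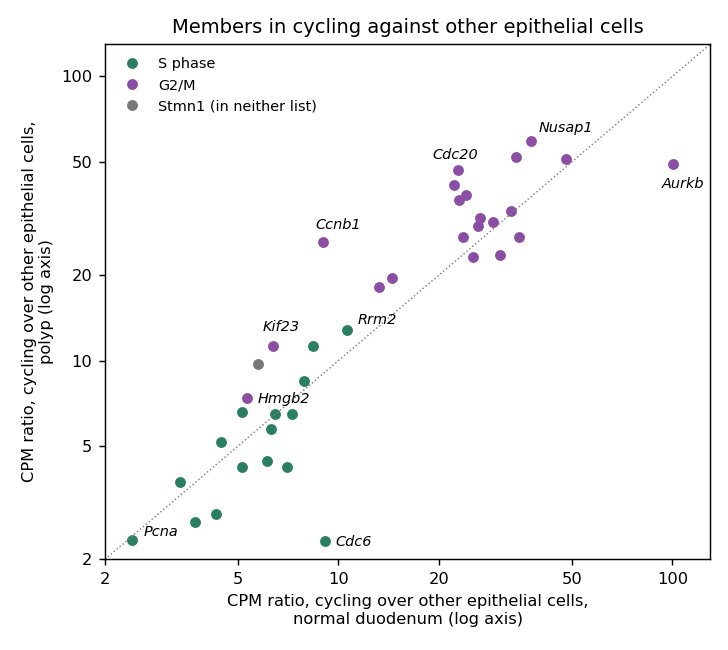
CPM ratio of cycling over other epithelial cells for 38 members, with normal duodenum on the x axis and polyp on the y axis (both log); green marks S phase, purple G2/M, grey Stmn1, and the dotted line equal folds. The S phase members lie between 2.32 and 12.8 and most G2/M members above 20, with Ccnb1 at 8.98 and 26.2 and Cdc6 at 9.12 and 2.32 farthest from the line.

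The cycling cells sat in different epithelial groups in the 2 tissues. In normal duodenum, cells with crypt markers such as Olfm4 had 28 of 74 cycling (37.8%, 26.8 to 49.9), and cells with enterocyte markers 20 of 383 (5.22%, 3.22 to 7.95). The crypt cells held 41.7% of the S phase UMIs of normal epithelium, at 1052 CPM (1007 to 1098). Goblet cells had 7 of 50 cycling (14.0%, 5.82 to 26.7). In polyps, cells with gastric surface markers had 97 of 768 cycling (12.6%, 10.4 to 15.2), with S phase members at 304 CPM. Cells with markers of more than 1 subclass had 119 of 1071 cycling (11.1%), and those with regenerative markers such as Clu had 15 of 94 (16.0%, 9.22 to 24.95). Gland mucous cells, marked by genes such as Muc6, had 3 of 363 cycling (0.826%), and enteroendocrine cells 0 of 130, which allows a share of up to 2.31%. Only 8 polyp cells were assigned to the crypt subclass alone, of which 3 were cycling. UMIs of the 10 crypt markers were found in 64.6% of normal and 82.7% of polyp epithelial cells, at 659 and 491 CPM. These sums did not rest on the same markers. Olfm4 was at 432 CPM in normal (27.2% of cells) against 3.06 CPM in polyp epithelium (2.02%). Slc12a2, another of the 10, reached 953 CPM in the polyp cluster led by Serpina3n, described below, where 1.66% of cells were cycling.

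Within single subclasses the S phase difference was not general. Crypt cells had S phase members at 1052 CPM in 74 normal cells, against 1044 CPM in 8 polyp cells, a ratio of 0.992 (0.768 to 1.26). Regenerative cells, 8 of them normal, had a ratio of 0.989 (0.671 to 1.52). Cells with enterocyte markers, 17 of them from polyps, had 1.21 (0.677 to 2.01). In gland mucous cells, 14 of them normal, the ratio was 1.68 (1.12 to 2.65). Ratios below 1 beyond counting error were found in enteroendocrine cells at 0.479 (0.328 to 0.712), in cells with markers of more than 1 subclass at 0.678 (0.611 to 0.753) and in cells of no subclass at 0.311 (0.280 to 0.346). The G2/M members without Hmgb2 varied as well. Their ratio was 1.76 (1.39 to 2.21) in crypt, 5.80 (2.47 to 17.9) in regenerative and 3.65 (1.40 to 13.5) in gland mucous cells. Normal regenerative and gland mucous cells held only 5 and 4 of these UMIs. The ratio was 1.13 (1.01 to 1.26) in cells of more than 1 subclass and 0.627 (0.567 to 0.694) in cells of no subclass. Enteroendocrine cells had 0.540 (0.306 to 0.993) and cells with enterocyte markers 0.570 (0.260 to 1.08). For the epithelium as a whole, levels within cells and a different makeup therefore cannot be told apart.

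Clusters gave a finer map. They were built over both libraries without the 40 members, but other cell cycle genes remained among the genes used, so the shares are descriptions. In the normal cluster led by Olfm4, Clca3b and Cps1, 69 of 252 cells were cycling (27.4%, 22.0 to 33.3), with S phase members at 661 CPM and G2/M members without Hmgb2 at 634 CPM. In the normal enterocyte cluster led by Leap2 and Lct, 0 of 201 cells were cycling, which allows a share of up to 1.49%. The 20 cycling normal cells with enterocyte markers named above thus lay in other clusters. G2/M members without Hmgb2 were at 18.8 CPM in this cluster, against 199 CPM in all normal cells with enterocyte markers. In polyps, the cluster led by Chil4, Khdc1a and Fer had 150 of 620 cycling (24.2%, 20.9 to 27.8), with S phase members at 432 CPM and G2/M members without Hmgb2 at 737 CPM. Chil4, a chitinase-like gene, had 0 UMIs in normal epithelium and 1011 CPM in polyp epithelium. Drawn to 5000 UMIs, the Olfm4 cluster had 10.6% cycling (6.79 to 15.5) and the Chil4 cluster 11.7% (8.94 to 14.97). That cluster alone held 150 of the 332 cycling polyp cells.

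Apart from the last one below, the remaining polyp clusters named here cycled less. The cluster led by Psca, Muc5ac and Gsdma2, with gastric surface mucin, had 38 of 554 cycling (6.86%, 4.90 to 9.29). The cluster led by Serpina3n, Uts2 and Chit1 had 14 of 842 (1.66%), and the cluster led by Pgc, the pepsinogen C gene, had 12 of 764 (1.57%). The clusters with Muc6 and with Gast and Pyy had 1 of 242 (0.413%) and 1 of 350 (0.286%). A further cluster, led by Esco2 and histone genes and so set by the cell cycle itself, had 9 of 20 normal and 58 of 132 polyp cells cycling (45.0% and 43.9%). Of its 20 normal cells, 9 were T and innate lymphoid cells and 11 were epithelial. The 11 held only 8 of the 430 normal UMIs of the G2/M members without Hmgb2 in this cluster. Its normal share is therefore not a share of epithelium.

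**Figure D5:**
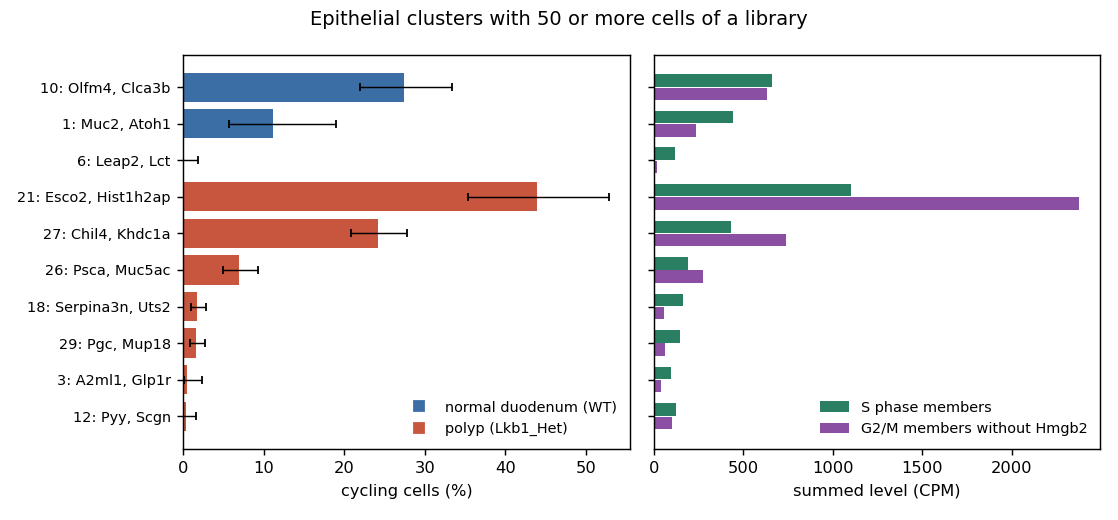
Left, share of cycling cells (per cent, not thinned, 95% binomial intervals) in epithelial clusters with 50 or more cells of a library, normal in blue and polyp in red; right, summed CPM of S phase members (green) and of G2/M members without Hmgb2 (purple) in the same cells. The Olfm4 cluster of normal duodenum (27.4%) and the Chil4 cluster of polyps (24.2%) have like shares, while S phase members stand at 661 and 432 CPM.

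T and innate lymphoid cells lay in different clusters in the 2 libraries. Of 801 normal cells, 486 were in a cluster led by Cd8b1 and Gzmk, 222 in one led by Cd200r2 and Klre1, and 59 in one led by Cd40lg and Ctla4. Of 738 polyp cells, 686 were in a cluster led by Tnfrsf4 and Icos, which held 11 normal cells, so a difference in level and a different mix of T cells cannot be told apart. RNA of epithelium was also higher in the polyp T cells. The 12 epithelial markers, all detected, summed to 775 CPM in normal against 1395 CPM in polyp T cells, and the 8 gastric surface markers to 1133 CPM and 35779 CPM. The part of these markers in the differences described next was not tested.

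The G2/M ratio of T cells depended on Hmgb2 and on single cells. The S phase members summed to 389 CPM in normal (366 to 413) and 470 CPM in polyp cells (438 to 503), a ratio of 1.21 (1.10 to 1.33). The G2/M members without Hmgb2 summed to 387 and 372 CPM, a ratio of 0.960 (0.868 to 1.06). A single normal cell with 49821 UMIs, against a class median of 3186, held 27.0% of the normal G2/M UMIs counted without Hmgb2. Without the top G2/M cell of each library, the levels were 288 and 353 CPM and the ratio 1.23 (1.10 to 1.37).

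The calls in these cells also depended on the normal cell with 49821 UMIs. With all cells, 2 of 14 tested S phase members were higher in polyps and 1 lower, and 2 of 21 G2/M members were higher and 5 lower, against 18.6% of all genes higher and 17.6% lower. Without that 1 normal cell, 4 S phase and 5 G2/M members were higher and 0 were lower. No polyp cell was left out, which by itself raises the ratios of members abundant in the normal cell. The shares over all genes were counted with all cells, so these counts describe the weight of 1 cell. Pcna was at 109 CPM in normal against 201 CPM in polyp T cells, a ratio of 1.85 (1.58 to 2.17), and 1.89 (1.61 to 2.21) without the cell. Kif23, a kinesin of cytokinesis, was at 5.10 and 18.2 CPM, a ratio of 3.57 (1.84 to 7.26). Ccne1 was at 3.64 and 13.5 CPM, a ratio of 3.71 (1.70 to 8.72).

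Among the T cell members lower in polyps, Birc5 was at 51.0 CPM in normal against 29.9 CPM in polyp cells, a ratio of 0.587 (0.417 to 0.814), and 0.783 (0.549 to 1.11) without the 1 normal cell. Ube2c was at 62.3 and 41.1 CPM, a ratio of 0.660 (0.492 to 0.876) that turned to 1.13 (0.819 to 1.55) without that cell, which held 73 of the Ube2c UMIs. Hmgb2, abundant in lymphocytes, was at 1133 CPM in normal against 923 CPM in polyp T cells, a ratio of 0.815 (0.767 to 0.867) that did not pass 1.5-fold. Outside the cycling T cells, the S phase members summed to 239 and 381 CPM, a ratio of 1.59 (1.42 to 1.78). In the same cells the 20 G2/M members summed to 70.6 and 148 CPM, a ratio of 2.10 (1.72 to 2.56). The 17 normal and 18 polyp cycling T cells went the other way, with ratios of 0.773 (0.650 to 0.915) and 0.666 (0.575 to 0.770). Single normal cells held 40.2% of those normal S phase UMIs and 35.7% of those normal G2/M UMIs. The median gene of T cells shifted by -0.03 on the log2 scale.

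The other lists in T cells are set against 18.6% of all genes higher and 17.6% lower. Entry regulators had 3 higher and 3 lower of 10 tested. Ccnd1 was at 2.19 CPM in normal against 17.6 CPM in polyp cells, while Cdk4, the partner of D-type cyclins, was at 79.4 and 44.6 CPM. The Ccnd1 levels were 3.33% and 16.3% of those in the epithelium of the same library. The epithelial markers stood at 5.64% and 16.8% of theirs. The part of free epithelial RNA in the Ccnd1 levels was not tested. Licensing and replication had 1 higher and 3 lower of 14, led by Rfc2, a clamp loader subunit, at 78.0 and 24.7 CPM. Inhibitors had 1 higher and 2 lower of 12, with Cdkn1a at 51.0 and 132 CPM and Cdkn2d at 70.3 and 29.4 CPM. Mitosis genes had 1 higher and 1 lower of 17.

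Plasma cells had few UMIs of the members, and lay in different clusters, with 133 of 149 normal cells in one and 264 of 296 polyp cells in another that held 2 normal cells. The epithelial markers summed to 392 CPM in normal against 691 CPM in polyp plasma cells. Of 11 members tested, 4 were higher in polyps and 1 lower, against 33.6% of all genes higher and 3.38% lower in a class whose median gene was 1.46-fold higher in polyps. Mki67 was at 6.48 CPM in normal against 19.2 CPM in polyp plasma cells, a ratio of 2.96 (1.62 to 5.66). Pcna was at 18.6 and 43.1 CPM, a ratio of 2.31 (1.60 to 3.38), and Mcm2 at 2.03 and 7.19 CPM. The 1 lower member was Ube2c, but 57 of its 59 normal UMIs came from 2 cells. Without these 2 cells, and with all polyp cells kept, 6 of 9 members tested were higher and 0 lower. The shares over all genes were counted with all cells. In acinar cells, 5 members could be tested and 2 were higher, Pcna and Hmgb2, against 34.1% of all genes higher and 3.14% lower, with only 71 polyp cells in the class and gastric surface markers at 6164 CPM in its normal against 116285 CPM in its polyp cells.

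Classes too small to compare were described by level. Polyp macrophages had S phase members at 339 CPM (294 to 389) and G2/M members without Hmgb2 at 235 CPM (198 to 277). Polyp mast cells, of which there were 70, had 553 CPM (443 to 682) and 521 CPM (414 to 647), but 1 cell held 43.9% of the latter. Polyp fibroblasts had 163 CPM (127 to 204) and 64.6 CPM (43.2 to 92.7), and B cells 323 CPM (242 to 424) and 236 CPM (167 to 324). The G2/M level without Hmgb2 was therefore lowest in fibroblasts among these 4 classes, and its interval did not overlap those of the other 3.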

How the data were processed

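UMI counts per gene and barcode were deposited by the authors as 1 matrix per library. The file headers name Cell Ranger 5.0.0, whereas the submitters' processing notes give Cell Ranger 3.0.0 and the mm10 genome. No source used here names the annotation release. Gene positions came from GENCODE vM21 and promoters from RefSeq, both on GRCm38, the assembly behind mm10. Barcodes were kept with at least 500 UMIs, 250 genes and at most 25% mitochondrial UMIs, which 3252 normal and 8460 polyp barcodes passed. The automatic thresholds of scrublet (scanpy 1.11.5) marked 0 doublets, so the highest scores, 85 and 573, were removed at 0.8% per 1000 cells. Of all barcodes, 44 occurred in both libraries.

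A marker counted as present where its UMIs exceeded the level in cells of another lineage (Poisson tail under 1%), and a cell took the class with the most markers present, at least 3. This presence rule was chosen after seeing that free RNA had spread acinar, gastric and immunoglobulin genes over most barcodes. Levels are UMIs summed over a class and scaled to a class total of 1000000 UMIs (CPM). Level intervals were exact Poisson, shares exact binomial, and ratios conditional binomial. Where 0 cells met a rule, the limit given is 3 cells over the cells counted. Genes needed 20 UMIs over both libraries. Thinned shares are exact hypergeometric expectations, whose interval treats the expected count as an observed one. PCR duplicates were already collapsed by UMI, and intervals cover counting error only. Clusters were made with Leiden at resolution 1 on 30 components of 2000 variable genes. The ratio calls and the thinning were tested on simulated counts.

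Members and lists were chosen with earlier results of these data known. All 40 members were counted. Named with values were Mki67, Top2a, the 6 S phase and 8 G2/M members with the most UMIs, in each compared class the 3 members in each direction with the interval end farthest from 1, and at most 4 genes of each other list by the same measure. Further members were named after their values were seen. The values of 1 gene chosen by this rule are not reported here. Classes with 50 or more cells in both libraries were compared. No test was made, because each group was 1 library of 3 pooled mice. Software was Python 3.11.15, numpy 2.4.6, scipy 1.17.1 and pandas 2.3.3.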

Additional observations from a re-analysis of the deposited data

How the results depend on the processing

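No paired analysis was possible because each group held 1 library, and leaving out a replicate could not be run for the same reason. Over 57 alternatives of 5 results, 47 stayed within the interval of the main value, 9 lay outside it on the same side of 1 and 1 reversed. The ratio of cycling shares in all kept cells moved from 0.881 to 0.369 with a mitochondrial limit of 50%. The S phase ratio in epithelium, 0.693, became 0.646 with a mitochondrial limit of 10%, 0.762 with 50%, 0.644 with classes from clusters and 0.743 as a mean over cells. The G2/M ratio in epithelium, 0.913, became 0.864 with a limit of 10%, 0.836 with classes from clusters, 0.841 as a mean over cells and 0.886 relative to the median gene. It reversed to 1.18 without Hmgb2, an alternative added after seeing the data, because Hmgb2 held 4826 of the 8922 normal G2/M UMIs. Drawing to 5000 UMIs, calling cycling cells from the other G2/M members without Hmgb2, and leaving out single T and plasma cells were also added after seeing the data. At 1000 UMIs, 4.37 normal epithelial cells were expected to meet the rule, and the ratio interval of 0.359 to 3.98 cannot show a difference of 1.5-fold.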

Other observations

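Cells outside the classes also held cycling cells. An unnamed cluster led by Ifitm6, Csf2rb and Wdfy4 had 3 of 14 normal and 14 of 194 polyp cells cycling (21.4% and 7.22%). Its S phase members summed to 427 CPM (386 to 472) and its G2/M members without Hmgb2 to 285 CPM (251 to 321) in polyps. The leading genes include Batf3, a transcription factor of dendritic cells, and too few of its cells carried markers of 1 class for a name.

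Among barcodes above the mitochondrial limit, the epithelial ones had 179 of 2065 cycling in normal duodenum (8.67%, 7.49 to 9.97) and 29 of 384 in polyps (7.55%, 5.12 to 10.7). Their S phase members were at 204 CPM in the normal and at 217 CPM in the polyp barcodes. These levels lie closer together than the 387 and 268 CPM of the kept epithelium, and the difference between the ratios was not tested. Of the barcodes removed as doublets, 4 of 85 and 10 of 573 met the cycling rule.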
